A study of Homo sapiens with 15 samples.

Results

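The 9 genes described here, HLA-B, HLA-C, HLA-E, B2M, TAP1, TAP2, TAPBP, PSMB8 and PSMB9, make the major histocompatibility complex (MHC) class I molecule and load it with peptide. They were picked by symbol from the 60612 genes of the deposited table. All 9 were among the 16841 genes with enough reads to test, with between 211 reads (PSMB9) and 83142 reads (B2M) in a library. RNA was measured by bulk RNA-seq in U87 and U251, which are established human glioma cell lines, in 15 libraries that form 5 groups of 3. Each line has a control group and a group with hairpin 1812, and U251 has a further group with hairpin 1813. Both are short hairpin RNAs brought in by stable transfection against LAMP2A, the lysosomal receptor of chaperone-mediated autophagy. The controls carry the genotype label WT, and the labels name no non-targeting hairpin for them. The labels do not say whether the libraries of a group came from separate cultures, so every p-value measures the spread between libraries, which may be technical. In bulk RNA, fewer cells that express a gene and less RNA per cell cannot be told apart.

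Class I molecules show peptides from inside the cell to CD8 T cells and to natural killer cells. The proteasome cuts proteins into peptides, the TAP transporter pumps the peptides into the endoplasmic reticulum, and tapasin holds an empty heavy chain beside the transporter until a peptide fits. Interferon induces most genes of this route together. Response elements, kappa-B sites and a CRE and CCAAT module are known from promoters of such genes. Glioma cells commonly carry class I on their surface.

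Some of the promoters hold letters of motifs known from genes of this route, and a few stretches are shown for that reason. RefSeq (GRCh38.p14) promoter windows were matched for 8 of the 9 genes by symbol, and HLA-E had none in the table used. Each sequence below is read 5′ to 3′ on the strand of its gene, and capitals mark matches to the motifs searched. These were the interferon-stimulated response element (GAAA, any 2 bases, GAAA), the kappa-B site (GGG, any 5 bases, CC), the CRE core TGACG and the CCAAT box CCAAT, on both strands, with overlapping matches run together. The heavy chains come first, HLA-B from chr6:31357229-31357359 (minus strand) and HLA-C from chr6:31272142-31272272 (minus strand). B2M follows, from chr15:44711367-44711477 (plus strand). The loading genes are TAP1 from chr6:32853764-32853844, TAP2 from chr6:32838769-32838804 and TAPBP from chr6:33314079-33314143, all on the minus strand.
HLA-B: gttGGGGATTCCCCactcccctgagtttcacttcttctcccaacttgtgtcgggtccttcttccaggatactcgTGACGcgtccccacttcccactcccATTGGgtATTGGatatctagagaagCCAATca
HLA-C: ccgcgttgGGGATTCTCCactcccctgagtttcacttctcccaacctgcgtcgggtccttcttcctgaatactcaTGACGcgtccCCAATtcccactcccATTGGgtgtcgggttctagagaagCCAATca
B2M: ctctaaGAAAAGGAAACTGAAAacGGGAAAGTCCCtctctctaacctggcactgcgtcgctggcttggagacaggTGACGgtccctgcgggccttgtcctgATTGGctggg
TAP1: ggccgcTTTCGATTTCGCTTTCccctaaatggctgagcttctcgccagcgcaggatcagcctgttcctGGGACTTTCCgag
TAP2: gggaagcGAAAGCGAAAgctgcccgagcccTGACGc
TAPBP: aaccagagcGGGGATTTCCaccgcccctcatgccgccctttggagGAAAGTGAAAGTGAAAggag

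The response element letters lay upstream of the start in B2M, TAP1, TAP2 and TAPBP, 4 of the 10 windows of the 8 genes, against 3.02% of 35116 promoter windows. In B2M, TAP1 and TAPBP the matches were pairs that overlap, and in TAP1 they read on the strand opposite to the gene. The gamma-activated site TTCNNNGAA was found in 1 of the 2 windows each of TAP1 and PSMB8, 2 of 10 windows against 6.57%. The kappa-B letters were in 7 of 10 windows against 54.4%, the CRE core in 6 of 10 against 21.2%, and the CCAAT box in 5 of 10 against 32%. In the printed stretches HLA-B and HLA-C share the order of kappa-B site, CRE core and CCAAT box. A match describes these letters and is not a site shown to be used.

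In the deposited table (GRCh38) 8 of the genes lie in the MHC region of chromosome 6 and B2M (ENSG00000166710) lies on chromosome 15 at 44711487 to 44718877. HLA-E (ENSG00000204592) spans 30489509 to 30494194. HLA-C (ENSG00000204525) spans 31268749 to 31272130, and the span given for HLA-B (ENSG00000234745), 31269491 to 31357188, crosses it. TAP2 (ENSG00000204267), at 32821833 to 32838770, PSMB8 (ENSG00000204264), at 32840717 to 32844679, and TAP1 (ENSG00000168394), at 32845209 to 32853978, lie side by side on the minus strand. PSMB9 (ENSG00000240065), at 32844136 to 32859851, runs the other way and overlaps TAP1 and PSMB8, while TAPBP (ENSG00000231925) lies apart at 33299694 to 33314387. The counting strand is not given in the sources used here, so reads of PSMB9 and of the genes it overlaps may not be fully separate. HLA-B and HLA-C lie on the same strand, so a known strand would not part their reads where the spans cross. Whether their exons overlap was not checked. Of the 100-base stretches of the TAP2 transcript, 35.2% also occur in the overlapping gene AL669918.1, whose median count was 10 reads against 1078 for TAP2. How the lines' own HLA alleles aligned to the reference was not tested.

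Total counts ranged from 14002652 to 18924072 per library. LAMP2, whose gene-level count adds all isoforms and so does not single out LAMP2A, stood at 659 to 711 CPM (reads scaled to the library total) in U251 control, 314 to 328 CPM with 1812 and 388 to 419 CPM with 1813. In U87 it was 195 to 294 CPM in control and 256 to 289 CPM in the libraries labelled 1812, so this group did not show a lower LAMP2 level. Of the glial markers, on the FPKM scale described next, VIM was at 543 or above in every library and SOX2 at 39.0 to 80.9 in U251 but at most 0.140 in U87. AQP4 had at most 1 read in a library. The leukocyte gene PTPRC had at most 10 reads in a library. Of 8 immune markers 2 could be tested. With edgeR's quasi-likelihood test CD68 was lower in U251 control than in U87 control (log2 -2.10, adjusted p 4.2e-04), and CD14 did not pass. Of 4 endothelial markers 3 could be tested, and PECAM1 alone passed there, also lower (-3.55, adjusted p 0.00122). PECAM1 was higher in U87 with 1812 than in control (1.93, adjusted p 0.0345), though it did not pass in every other fit. Replicates 2 and 3 of both control groups differed from all other libraries in make-up, with a count-weighted mean gene length of 6.53 to 6.77 kb against 5.61 to 5.92 kb elsewhere. The nuclear RNA MALAT1 stood at 250.7 to 391 CPM in those 4 libraries and at 32.7 to 101 CPM in the others. For this reason each comparison with the controls is also given with control replicate 1 alone. Such a control group of 1 library has no spread of its own, so its p-values take the spread from the 3 hairpin groups and assume that the lone library varies like them.

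Levels are given as scaled FPKM, reads per kilobase of exon scaled to library size with TMM factors, and always in the order of replicates 1, 2 and 3. HLA-B, a classical heavy chain that holds the peptide for CD8 T cells, was at 70.0, 51.9 and 49.2 in the U87 controls, and with 1812 in U87 at 45.0, 52.4 and 50. In U251 it stood at 75.1, 83.2 and 83.3 in control, at 169, 141 and 125 with 1812, and at 50.8, 127 and 117 with 1813. The lowest 1812 library of U251 was thus above the highest control library, whereas the 1813 libraries lay on both sides of the controls.

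HLA-C, a classical heavy chain that is also read by killer-cell receptors, was lower than HLA-B in every library on this scale. Its U87 levels were 14.8, 10.7 and 9.82 for the controls and 12.0, 11.3 and 15 with 1812, groups that overlapped. Its U251 levels were 32.6, 35.9 and 28.9 for the controls, 70.0, 56.7 and 49.8 with 1812, and 23.7, 57.5 and 56.4 with 1813. Replicate 1 with 1813 stood apart for both classical heavy chains, at 0.416 times the mean of replicates 2 and 3 for HLA-B and 0.417 times for HLA-C. For the other 7 genes that ratio lay between 0.679 (PSMB9) and 1.03 (TAPBP).

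HLA-E, the heavy chain that presents signal peptides of other class I chains to natural killer cells, was above HLA-B in every library. In U87 it was 108, 53.3 and 53.3 for the controls and 93.4, 88.3 and 76.9 with 1812. In U251 it was 146, 149 and 150 in control, 296, 252 and 222 with 1812, and 137, 167 and 159 with 1813. The U251 controls were close together, and all 3 libraries with 1812 lay above them and above those with 1813.

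B2M, the light chain that every class I heavy chain needs to fold, had the highest level of the 9 genes. In U87 it was 499, 204 and 204 for the controls and 397, 402 and 408 with 1812. In U251 it was 553, 429 and 416 in control, 882, 771 and 784 with 1812, and 522, 630 and 630 with 1813. In U87 the first control lay above the libraries with 1812 and the other 2 controls lay below them.

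TAP1 and TAP2 are the subunits of the peptide transporter. TAP1 stood at 17.2, 8.0 and 8.41 in U87 control, 11.4, 9.35 and 7.81 in U87 with 1812, 35.1, 41.4 and 40.0 in U251 control, 77.3, 63.9 and 55.9 with 1812, and 34.6, 41.1 and 32.7 with 1813. TAP2 stood at 6.12, 4.58 and 4.89, then 7.62, 4.87 and 5.61, then 11, 17.2 and 16.8, then 15.9, 16.0 and 15, and last 10.3, 13.0 and 11.4 in the same order of groups. In U251 with 1812 every TAP1 library was above every control, while TAP2 lay within the range of its controls.

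TAPBP encodes tapasin, which bridges the heavy chain and the transporter. Its levels were 37.6, 28.3 and 29.9 in U87 control, 40.6, 28.8 and 25.6 in U87 with 1812, 45.7, 53.4 and 54.5 in U251 control, 41.2, 40.2 and 33.7 with 1812, and 40.8, 41.5 and 37.7 with 1813. It was the gene of the 9 whose U251 controls lay above all libraries of both hairpins.

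PSMB8 and PSMB9 are catalytic subunits that replace PSMB5 and PSMB6 when a cell builds the immunoproteasome, which favours peptides that class I can hold. PSMB8 stood at 29, 13.0 and 12.9 in U87 control, 22.4, 26.3 and 23.3 in U87 with 1812, 43.7, 31.9 and 30.6 in U251 control, 65.0, 53.5 and 55.2 with 1812, and 41.2, 50.3 and 45.9 with 1813. PSMB9 stood at 14.1, 4.37 and 5.60, then 13.1, 10.1 and 9.27, then 12.6, 11.3 and 11.8, then 27.2, 20.2 and 20.3, and last 11.4, 17.4 and 16.2. Both subunits were higher in all 3 U251 libraries with 1812 than in all 3 controls.

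**Figure D1:**
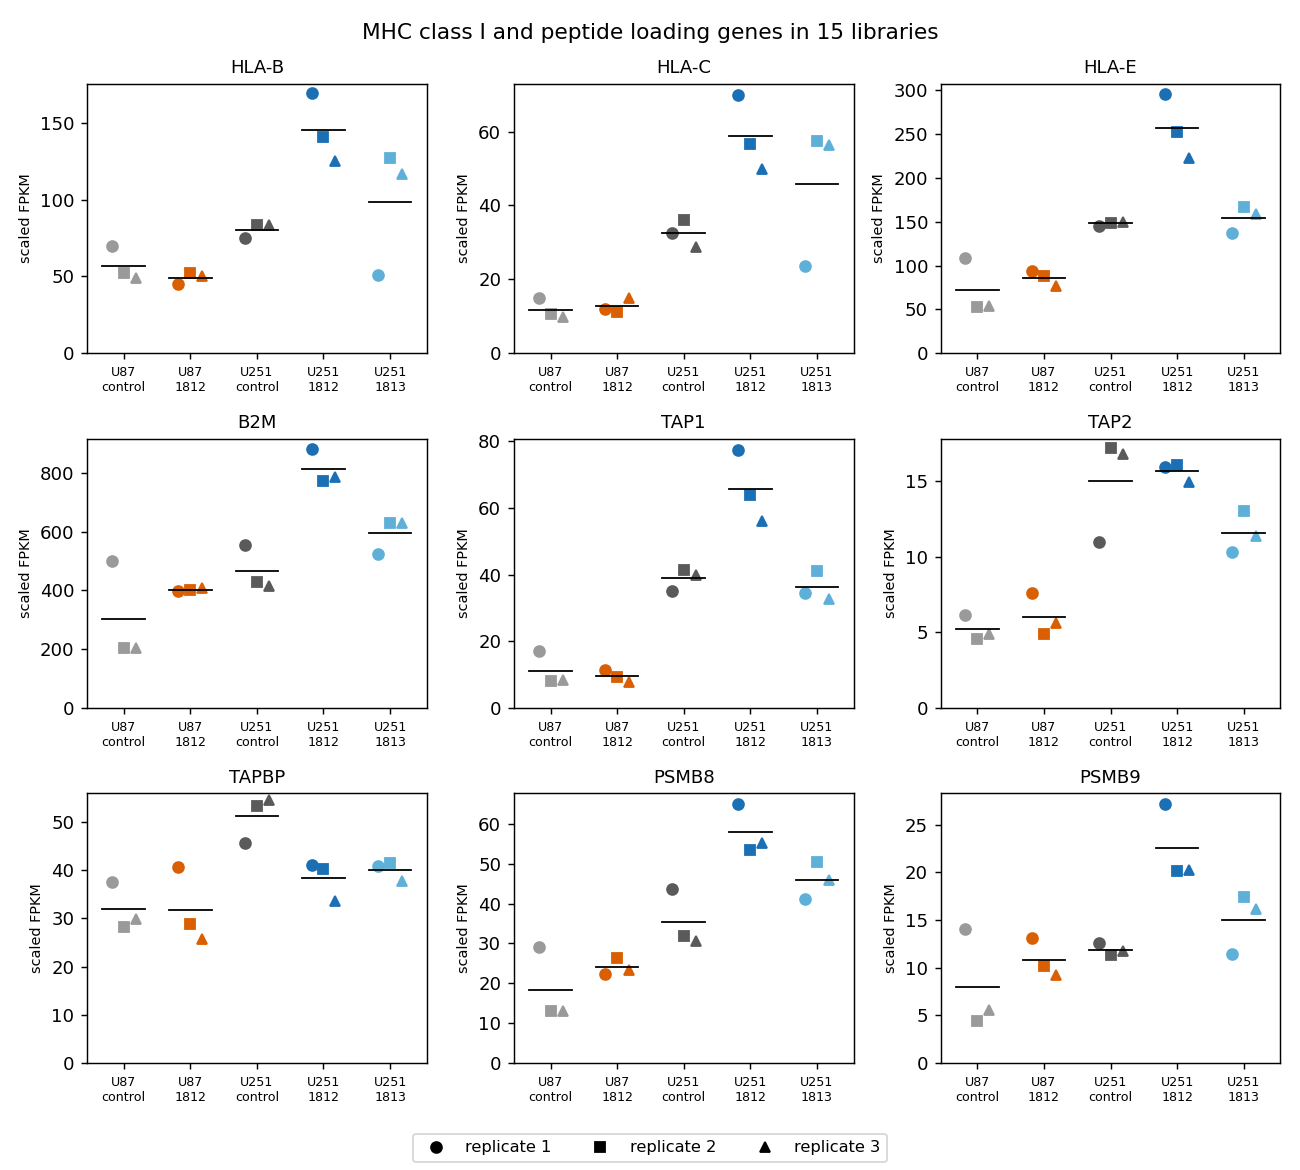
Level of each of the 9 genes in scaled FPKM (linear vertical axis from 0) in the 15 libraries, by group along the horizontal axis, with 1 marker per library shaped by replicate number and a line at the group mean. HLA-B runs from 45.0 in U87 with 1812 to 169 in U251 with 1812, and TAPBP is the panel in which the U251 controls are above both hairpin groups.

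Hairpin 1812 against control in U251 asks what the knockdown changes in the line where LAMP2 was lower. None of the 9 genes passed at an adjusted p under 0.05 with edgeR's quasi-likelihood test, where 0.410% of all tested genes passed as higher and 0.582% as lower. At an unadjusted p under 0.05, 7 were higher, against 7.60% of all genes, and 1 was lower, against 8.29%. The libraries of the same 7, HLA-B, HLA-C, HLA-E, B2M, TAP1, PSMB8 and PSMB9, lay entirely above the controls, a separation seen in 14.9% of all genes. The median log2 fold change of the 9 was 0.79, and that of all tested genes was 0.01.

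The heavy chains and their light chain differed by similar amounts. HLA-B was 1.80-fold the control mean (log2 0.85, SE 0.26, adjusted p 0.140 with edgeR) and HLA-C 1.81-fold (log2 0.86, SE 0.27, adjusted p 0.157). HLA-E was 1.73-fold (log2 0.79, SE 0.23, adjusted p 0.117) and B2M 1.74-fold (log2 0.80, SE 0.28, adjusted p 0.190). None of these values passed, and DESeq2 passed HLA-E, at an adjusted p of 0.0386.

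The loading genes did not keep together. TAP1 was 1.69-fold (log2 0.76, SE 0.25, edgeR adjusted p 0.171), whereas TAP2 was 1.04-fold (log2 0.06, SE 0.20, adjusted p 0.894), with a 95% interval from -0.35 to 0.48. TAPBP was 0.749-fold (log2 -0.42, SE 0.17, adjusted p 0.261), and its libraries lay entirely below the controls, as did those of 13.7% of genes. PSMB8 was 1.64-fold (log2 0.71, adjusted p 0.205) and PSMB9 1.9-fold (log2 0.92, adjusted p 0.197).

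How many of the 9 passed depended on the fit. The same 7 genes passed, all higher, when only the 6 libraries compared were fitted. In that fit 338 of 15156 genes passed as higher and 496 as lower, against 69 and 98 of 16841 in the main fit. The 7 also passed when genes with few reads were left in, a fit for which no share over all genes is given. With control replicate 1 alone the log2 fold changes of those 7 ranged from 0.41 (PSMB8) to 0.95 (HLA-B), and HLA-E had an edgeR adjusted p of 0.0367 (log2 0.82), with the spread of the single control borrowed from the hairpin groups. With a term for the make-up of control replicates 2 and 3 they ranged from 0.17 (PSMB8) to 0.73 (HLA-B) and none passed.

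Hairpin 1813 against control in U251 asks whether the other hairpin gives the like result. None of the 9 genes passed, against 0.0178% of all genes higher and 0.0297% lower, and DESeq2 also passed none. None reached an unadjusted p under 0.05 with edgeR, against 6.16% of all genes higher and 6.99% lower. The log2 fold changes ran from -0.37 (TAP2) to 0.50 (HLA-C), with edgeR adjusted p from 0.387 to 0.926. With a term for the make-up of control replicates 2 and 3, HLA-E stood at -0.31, B2M at -0.23, PSMB8 at -0.17 and PSMB9 at -0.25, all above 0 without it, and none passed. TAPBP, at -0.36, was the 1 gene of the 9 whose libraries did not overlap the controls, and it lay below them, as did 12.6% of genes, while 13% lay entirely above. Without replicate 1 of 1813, HLA-B stood at 0.60 in place of 0.29, HLA-C at 0.81 in place of 0.50 and HLA-E at 0.14 in place of 0.06, and none of them passed.

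Between the 2 hairpins none of the 9 genes passed with edgeR, against 0.0475% of all genes higher with 1812 and 0.0297% lower. At an unadjusted p under 0.05, HLA-B, HLA-E, TAP1 and TAP2 were higher with 1812, 4 of 9 against 3.72% of all genes, none was lower, against 2.48%, and DESeq2 passed none. TAP1 differed by 0.86 (SE 0.25, 95% interval 0.33 to 1.40, adjusted p 0.421) and HLA-E by 0.74 (SE 0.23, 0.25 to 1.23, adjusted p 0.465). HLA-C differed by 0.36 with an interval from -0.22 to 0.94, and TAPBP by -0.06 with an interval from -0.43 to 0.31. HLA-E, B2M, TAP1, TAP2, PSMB8 and PSMB9 had all 3 libraries with 1812 above all 3 with 1813, a separation seen in 12.2% of genes, and none had them all below, as 12.1% of genes did. Without replicate 1 of 1813, HLA-B differed by 0.25 in place of 0.56 and HLA-C by 0.05 in place of 0.36. Both hairpins were set against the same 3 controls, so their changes are not independent.

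In U87, the libraries labelled 1812 did not differ detectably from control in any of the 9 genes. None passed, against 5.86% of all genes higher and 7.74% lower, and DESeq2 passed none. At an unadjusted p under 0.05 with edgeR there was none either, against 12.6% of all genes higher and 17% lower. On scaled FPKM the groups overlapped for all 9, while 11.9% of genes lay entirely above and 12.2% entirely below. On the deposited FPKM, without TMM scaling, HLA-B lay entirely below its controls. The log2 fold changes ran from -0.24 (TAP1) to 0.43 (PSMB9), with edgeR adjusted p from 0.331 to 0.989 and, for HLA-B, a 95% interval from -0.77 to 0.34.

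The values in this comparison moved with the U87 controls that were used. HLA-B stayed below 0 in all 13 alternatives, from -0.52 to -0.027, and each other gene turned sign in at least 1. Replicate 1 was 2.45-fold the mean of replicates 2 and 3 for B2M, 2.82-fold for PSMB9, 2.24-fold for PSMB8, 2.10-fold for TAP1 and 2.03-fold for HLA-E, and between 1.29-fold and 1.45-fold for the other 4. Without that library, 4 genes passed as higher with edgeR: B2M at 1.00 (adjusted p 6.0e-05), PSMB9 at 1.13 (3.8e-04), PSMB8 at 0.90 (3.1e-04) and HLA-E at 0.71 (5.8e-04). With it as the 1 control, all 9 values were below 0, from -0.03 (TAP2) to -0.86 (TAP1), and TAP1 had an adjusted p of 0.00789, with the spread of this high single control borrowed from the hairpin groups. With a term for the make-up of control replicates 2 and 3, the values ran from -0.48 (TAP1) to 0.29 (TAP2) and none passed. In the fit without replicate 1, both controls left had the differing make-up and no hairpin library did. Make-up and hairpin cannot be told apart there. Those controls were also a close pair (mean chi-square per gene 1.82), which the adjusted p-values of that fit do not take into account. No share over all genes is given for it.

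**Figure D2:**
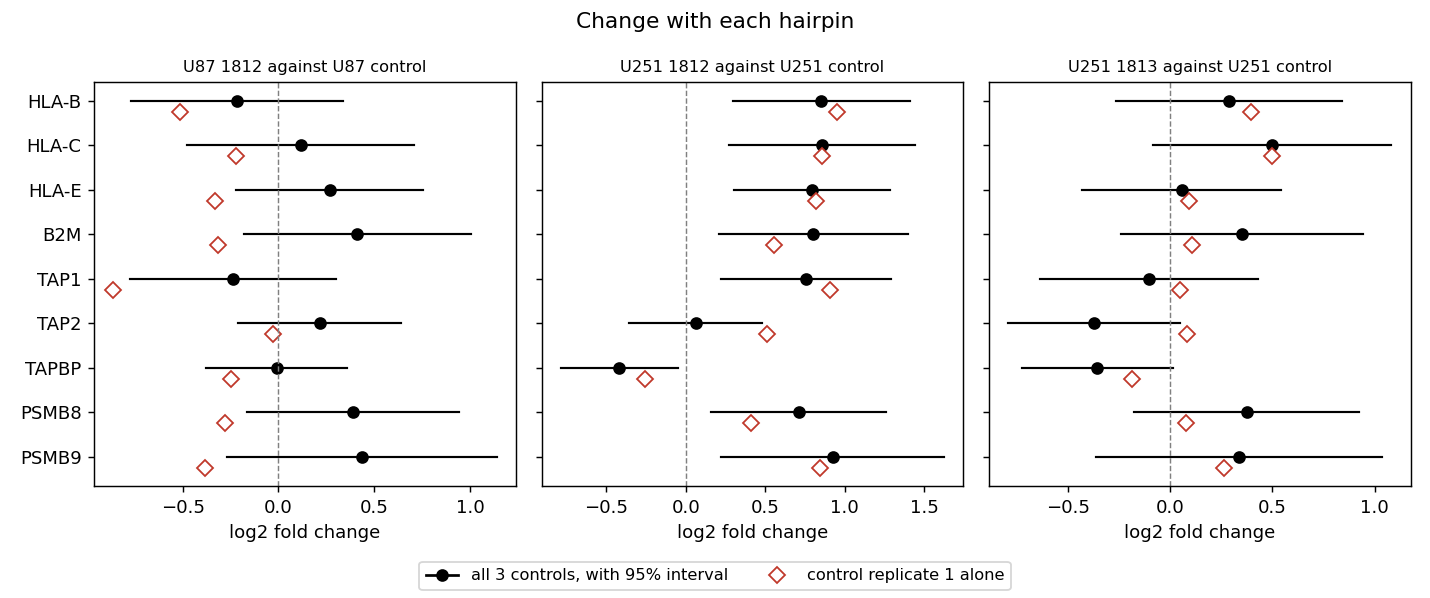
Log2 fold change of the 9 genes (horizontal axis, a separate scale in each panel) for the 3 groups with a hairpin against the controls of their line. Filled points use all 3 controls and carry 95% intervals, and open diamonds use control replicate 1 alone, which moves B2M in U87 from 0.41 to -0.32 and HLA-B in U251 with 1812 from 0.85 to 0.95.

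The difference between the change with 1812 in U87 and that in U251 was tested directly. None of the 9 genes passed with edgeR, against 2.19% of all genes higher and 2.32% lower, and DESeq2 passed none. HLA-B (-1.07, SE 0.37, adjusted p 0.117) and TAP1 (-1.0, SE 0.36, adjusted p 0.132) reached an unadjusted p under 0.05, 2 of 9 against 10.8% of all genes in that direction, and none in the other, against 8.13%. TAP2 (0.15) and TAPBP (0.41) had the opposite sign to the other 7. With control replicate 1 alone, which in U87 is the high library, the values were -1.77 for TAP1, -1.23 for PSMB9, -1.15 for HLA-E and -0.87 for B2M. Each line then has 1 control, and the adjusted p under 0.05 of these 4 genes rests on the spread of the hairpin groups.

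U251 carried more RNA of most class I and loading genes than U87. Between the controls, 6 of the 9 genes were higher in U251 and none lower with edgeR, against 24.0% of all genes higher and 26.0% lower. TAP1 was 3.46-fold (log2 1.79, SE 0.26, adjusted p 4.1e-05), TAP2 2.88-fold (1.53, SE 0.20, 1.8e-05) and HLA-C 2.76-fold (1.46, SE 0.28, 5.1e-04) the U87 level. HLA-E (1.05, adjusted p 0.00154), PSMB8 (0.95, 0.00696) and TAPBP (0.68, 0.00434) also passed. HLA-B (0.50, adjusted p 0.127), B2M (0.62, 0.0756) and PSMB9 (0.57, 0.169) did not. The controls of U251 lay entirely above those of U87 for the 6 that passed and for HLA-B, a separation seen in 25.7% of genes.

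The calls that rested on the U87 controls moved with them. Without U87 control replicate 1 all 9 genes passed as higher, with PSMB9 at 1.26 and B2M at 1.2. The U87 controls then left are the close pair with the differing make-up, and no share over all genes is given for that fit. With control replicate 1 of each line alone, 1 library against 1, the log2 differences were 1.13 for HLA-C, 1.02 for TAP1, 0.84 for TAP2, 0.59 for PSMB8 and 0.42 for HLA-E. They were 0.28 for TAPBP, 0.15 for B2M, 0.099 for HLA-B and -0.17 for PSMB9, and no call is drawn from any of these. With the replicate number as a block, in which controls of the same number are paired, 7 passed, since B2M reached 0.68 (edgeR adjusted p 0.0435). In that fit 4368 of 16841 genes passed as higher and 4572 as lower. When the 6 control libraries were fitted alone 5 passed, and PSMB8 had an adjusted p of 0.0891. There 2672 of 15929 genes passed as higher and 2740 as lower.

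With hairpin 1812 in both lines the distance was larger in 7 of the 9 genes, the exceptions being TAP2 and TAPBP, and this increase is the difference tested above, which did not pass for any of them. In this comparison 8 genes were higher in U251 with edgeR and none lower, against 26.4% of all genes higher and 25.3% lower. TAP1 was 6.90-fold (log2 2.79, SE 0.27, adjusted p 7.0e-07), HLA-C 4.61-fold (2.20, SE 0.29, 1.4e-05), HLA-E 2.98-fold (1.57, SE 0.23, 5.3e-05) and HLA-B 2.96-fold (1.56, SE 0.26, 1.7e-04). TAP2 (1.37), PSMB8 (1.27), PSMB9 (1.06, adjusted p 0.0143) and B2M (1.01, adjusted p 0.00698) also passed. TAPBP, at 0.27 with an adjusted p of 0.202, did not. The same 8 had all U251 libraries above all U87 libraries, as did 35.4% of genes. PSMB9 missed the threshold without U87 1812 replicate 2 (adjusted p 0.0508), without U87 1812 replicate 3 (0.0589) or without U251 1812 replicate 1 (0.0609), and TAPBP passed without U87 1812 replicate 1 (0.49, adjusted p 0.0234).

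MHC class II, which shows peptides from outside the cell and is normally a mark of professional antigen-presenting cells, went the other way. All 8 of its listed genes were lower in U251 than in U87, with a median log2 fold change of -5.92 between the controls and -6.17 with 1812. CIITA, the coactivator that class II genes need, stood at 0.594, 0.973 and 1.11 scaled FPKM in U87 control and at most 0.0631 in any U251 library. The difference between the controls was -4.65 for CIITA (SE 0.34, edgeR adjusted p 4.0e-08), -6.13 for HLA-DPA1 (SE 0.44, 3.4e-08) and -9.47 for HLA-DRB1 (SE 0.74, 7.8e-08). HLA-DRB1 had at most 4 reads in any U251 library, so its fold is set by very few reads.

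**Figure D3:**
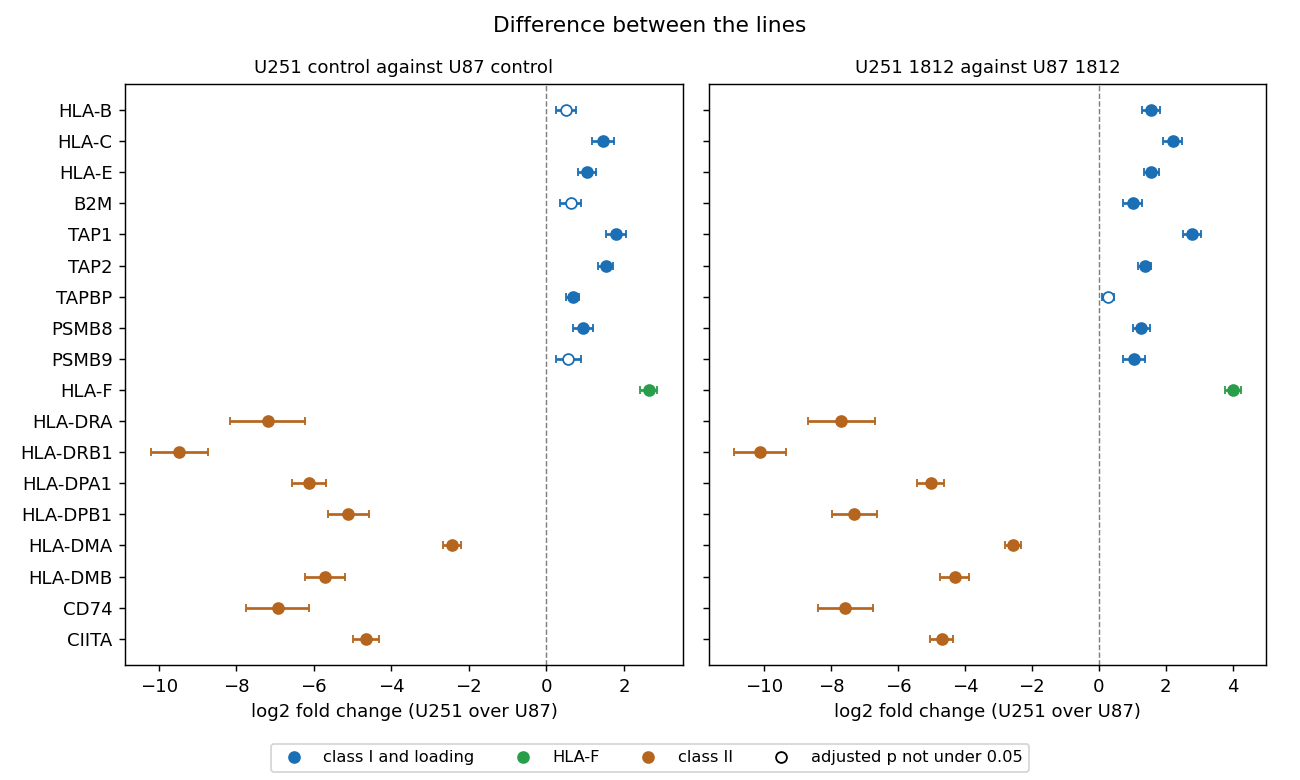
Log2 fold change of U251 over U87 (horizontal axis, a separate scale in each panel) between the controls on the left and with hairpin 1812 on the right, for the 9 genes, HLA-F and the 8 class II genes. Bars are 1 SE and open points have an adjusted p not under 0.05. Class I and loading genes lie to the right of 0 and class II genes to the left, down to -9.47 for HLA-DRB1 between the controls.

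Ratios within a library do not depend on its depth, but they can still carry the make-up of control replicates 2 and 3. PSMB8 over PSMB5, the immunoproteasome subunit over the one it replaces, was 0.331 to 0.579 in the U251 libraries and 0.137 to 0.262 in those of U87, with no overlap. In U251 it was 0.435, 0.480 and 0.500 in control and 0.579, 0.533 and 0.576 with 1812. PSMB9 over PSMB6 overlapped between the lines, at 0.0594 to 0.170 in U251 and 0.0462 to 0.133 in U87, and in U251 it was 0.0768, 0.111 and 0.119 in control and 0.170, 0.141 and 0.132 with 1812. Of the constitutive subunits themselves, PSMB7 was lower in U251 control than in U87 control (-1.06, edgeR adjusted p 0.0204), though its libraries overlapped and without U87 control replicate 1 it stood at -0.30 (adjusted p 0.184). It also missed the threshold without U251 control replicate 2 (0.0818) or 3 (0.0821), while PSMB5 (-0.45, 0.0531) and PSMB6 (-0.17, 0.653) did not pass. For both ratios all 3 libraries with 1812 lay above all 3 controls in U251 and also in U87, where PSMB8 over PSMB5 was 0.241 to 0.262 against 0.137 to 0.233 and PSMB9 over PSMB6 was 0.0683 to 0.133 against 0.0462 to 0.0628. With 1813 they overlapped the U251 controls, at 0.331 to 0.517 and 0.0594 to 0.1000. The remaining pair, PSMB10 over PSMB7, did not separate 1812 from control in either line. It was 0.0922 to 0.105 against 0.0586 to 0.102 in U251, and 0.0693 to 0.109 against 0.0626 to 0.0766 in U87. Full separation is a layout for which an exact two-sided permutation test of 3 against 3 cannot go below 0.1. How often ratios of other genes separate these groups or the lines was not computed, here or for the ratios below. Of single genes, 14.9% lay entirely above the controls with 1812 in U251 and 11.9% in U87.

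TAP1 over TAP2 was 3.20, 2.41 and 2.39 in U251 control, 4.86, 3.98 and 3.74 with 1812, and 3.35, 3.16 and 2.88 with 1813. The libraries with 1812 lay above those of the other 2 groups. HLA-C over HLA-B was 0.347 to 0.482 in U251 and 0.199 to 0.300 in U87, with no overlap between the lines. The spans of HLA-B and HLA-C cross, and how the lines' alleles aligned was not tested, so this ratio may carry both. With 1812 in U251 it was 0.413, 0.403 and 0.397, within the range of the controls (0.347 to 0.434). In replicate 1 with 1813, where both heavy chains were low, it was 0.467, between the values of replicates 2 and 3.

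**Figure D4:**
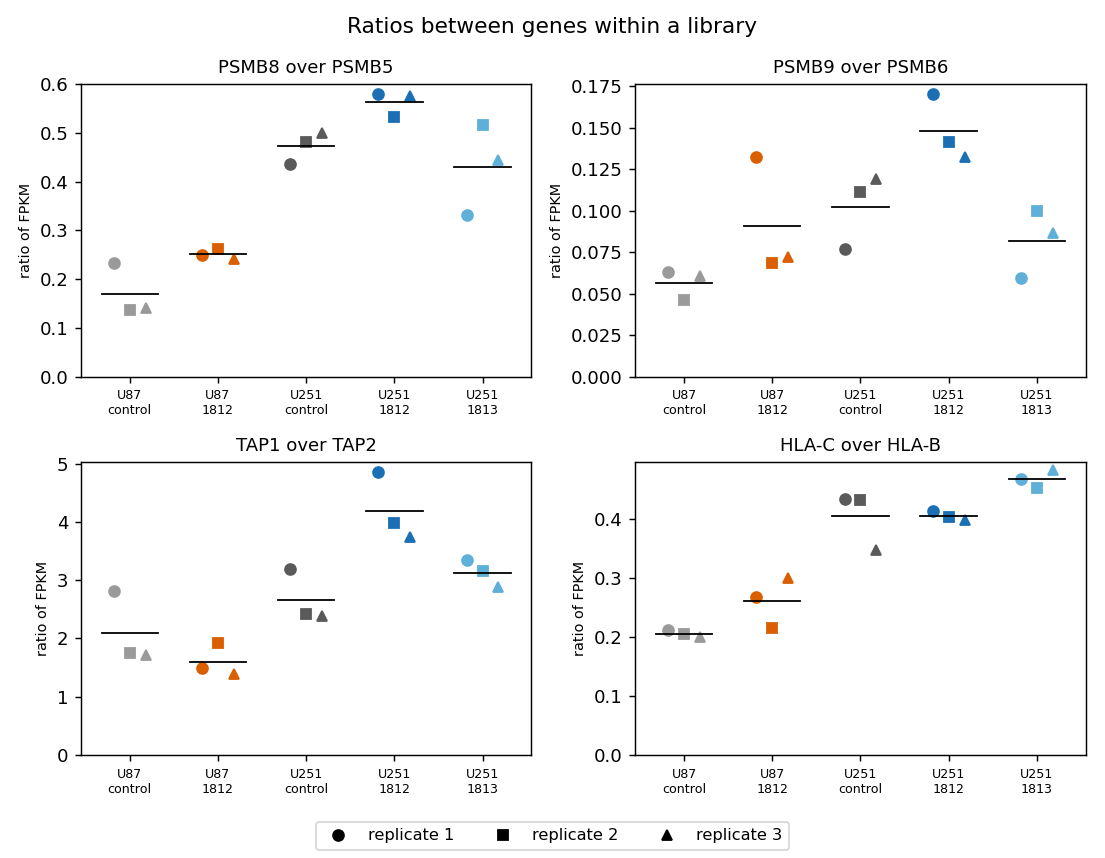
Ratios of FPKM between genes of the same library (linear vertical axis from 0) by group, with 1 marker per library and a line at the group mean. PSMB8 over PSMB5 and HLA-C over HLA-B separate the lines, and TAP1 over TAP2 is highest in U251 with 1812, at 3.74 to 4.86.

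The 9 genes varied together across the 15 libraries apart from TAPBP. Pearson's r between a gene's log2 CPM and the mean of the 9 was 0.89 (HLA-B) to 0.99 (HLA-E) for 8 genes and 0.65 for TAPBP. Within the 9 U251 libraries it was 0.95 for PSMB9, 0.97 for HLA-E, 0.55 for TAP2 and -0.40 for TAPBP. B2M and PSMB8 had an r of 0.98 in both sets, and TAPBP had an r of -0.80 with each of them in U251. These values are a description, since the libraries share groups, lines and make-up and the mean includes the gene itself.

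The genes outside the set whose pattern was most like the mean of the 9, by Pearson's r over 15 libraries among 7311 genes, were KRT80 (0.98), IFI35 (0.98), IFITM3 (0.97), PVR (0.97) and TMEM62 (0.97). IFI35 and IFITM3 are induced by interferon, KRT80 is a keratin, and PVR is a ligand of receptors on natural killer cells. IFITM3 stood at 93.1, 32 and 33.6 scaled FPKM for the U87 controls and 112, 95.4 and 87.2 with 1812 there. In U251 it stood at 257, 259 and 250 in control, 456, 427 and 416 with 1812, and 244, 372 and 342 with 1813, on both sides of the controls. Within the 9 U251 libraries, among 7182 genes, the most alike were HLA-F (0.98), LY6E (0.98), TMEM45A (0.96), DUSP4 (0.96) and CDKN2AIP (0.96). LY6E, an interferon-induced surface protein, stood at 87.8, 91.6 and 90.6 in U251 control, 172, 165 and 151 with 1812, and 71.4, 121 and 108 with 1813. Its level with 1813 was also lowest in replicate 1.

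HLA-F, a non-classical heavy chain that pairs with B2M, is among the other B2M partners listed. It stood at 2.84, 1.88 and 1.71 in U87 control, 1.40, 1.28 and 1.43 in U87 with 1812, 12.9, 14.2 and 13.0 in U251 control, 25.2, 21.1 and 19.7 with 1812, and 9.56, 16.2 and 15.6 with 1813. It was higher in U251 than in U87 by 2.64 between the controls (SE 0.22, edgeR adjusted p 1.8e-07) and by 4.01 with 1812 (SE 0.24, 4.4e-09). The change with 1812 differed between the lines by -1.36, U87 minus U251 (SE 0.31, adjusted p 0.0244). Leaving out any of 7 single libraries took that adjusted p to between 0.0526 and 0.0683. Of the 6 listed partners, HLA-G and CD1D had too few reads to test.

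MR1, which pairs with B2M and shows vitamin B metabolites to T cells, fell in U87 with 1812. Its levels were 4.48, 6.27 and 6.80 scaled FPKM in U87 control and 2.35, 2.42 and 2.18 with 1812 (log2 -1.34, SE 0.16, edgeR adjusted p 4.5e-04). The U251 controls had 4.47, 4.71 and 4.72 and the U251 libraries with 1812 had 4.20, 3.27 and 3.75, and the change differed between the lines by -1.03 (adjusted p 0.0210). When U87 control and U87 with 1812 were fitted alone, the U87 adjusted p was 0.101.

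Among 11 listed partners of trimming and loading, 1 was higher and 3 were lower in U251 control than in U87 control, against 24% and 26% of all genes. PSME2, a subunit of the proteasome activator PA28, was higher by 0.78 (SE 0.13, edgeR adjusted p 1.4e-04). TAPBPL, which edits the peptides of class I, was lower by 3.26 on the log2 scale (-3.26, SE 0.30, 4.8e-07), at 0.266 to 0.424 scaled FPKM against 2.87 to 3.88. PSME1, the partner of PSME2 in PA28, was lower by 0.53 (-0.53, adjusted p 0.0268), and it missed the threshold without U87 control replicate 1 (-0.24, adjusted p 0.131). In U87, ERAP2, which trims peptides inside the endoplasmic reticulum, was the 1 partner of the 11 that rose with 1812, by 0.69 (SE 0.18, adjusted p 0.0202); without U87 1812 replicate 1 its adjusted p was 0.0808. None of the 11 passed with either hairpin in U251.

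Of 15 listed regulators of class I genes, 3 were higher and 2 lower in U251 control than in U87 control, against 24% and 26% of all genes, so the list did not stand above the background. IRF9, which binds the interferon-stimulated response element, was higher by 1.91 (SE 0.31, edgeR adjusted p 1.4e-04). IRF2, which competes at that element, was lower by 1.15 on the log2 scale (-1.15, SE 0.18, 1.1e-04). NLRC5, the coactivator of class I genes, stood between 2.11 and 3.97 scaled FPKM in the 15 libraries. In U251 with either hairpin none of the 15 passed.

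In U87 with 1812, NFYB, a subunit of the factor that binds CCAAT boxes, rose by 0.77 (SE 0.15, edgeR adjusted p 0.00573). NFKB1, a subunit of the factor that binds kappa-B sites, fell by 0.61 (SE 0.14, adjusted p 0.0139), and RFX5, which binds the X box of class I and class II promoters, fell by 0.41 (SE 0.12, adjusted p 0.0423). With control replicate 1 alone NFKB1 stood at -0.36 and no longer passed (adjusted p 0.129), and it missed the threshold when any 1 of 4 libraries was left out (0.0541 to 0.0743). RFX5 missed it when any 1 of 5 libraries was left out (adjusted p 0.0843 to 0.132). IRF1, an interferon-induced activator of these genes, was singled out after its values were seen: it stood at 7.90, 2.45 and 2.39 scaled FPKM in U87 control and 6.80, 5.17 and 4.79 with 1812. Its first control was thus high where those of B2M, PSMB8 and PSMB9 were high. The same control was also high for PSMB7, at 387, 130 and 125, and for THOP1, at 30.3, 9.95 and 9.57. It was low for LNPEP, at 3.50, 7.69 and 8.65. Whether IRF1 bears on the levels of the 9 genes was not tested.

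Of 12 listed interferon ligands, receptors and kinases, none passed with a hairpin in either line. Of the 10 with enough reads to test, 3 were higher and 4 lower in U251 control than in U87 control, against 24% and 26% of all genes. IFNGR1, a chain of the interferon gamma receptor, was higher by 1.09 (SE 0.15, edgeR adjusted p 2.3e-05). JAK1, a kinase of both receptor types, was lower by 0.86 (-0.86, SE 0.17, 5.3e-04), and SOCS1, an inhibitor of JAK kinases, was lower by 1.75 on the log2 scale (-1.75, SE 0.35, 7.4e-04). IFNB1, interferon beta, had 0 reads in every U87 library, 11, 2 and 4 reads in U251 control, 27, 25 and 13 with 1812, and 2, 2 and 2 with 1813. These counts are too low to set a level by.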

How the data were processed

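Per the labels' protocols, ribosomal RNA was removed before random-primed, dUTP-stranded libraries were built. Per the submitters' processing notes, the tools were bcl2fastq 2.17.1.14, cutadapt 1.9.1, HISAT2 2.0.1, HTSeq 0.6.1, bedtools 2.17.0 and DESeq2, on GRCh38. Neither annotation release nor counting strand is given in the sources used here. Raw values come as the authors deposited them, a read count and an FPKM value per gene and library. The deposited FPKM equalled count over exonic length and total count within 0.005, and scaled FPKM was recomputed from counts with TMM factors.

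Counts were tested with edgeR 4.0.16 (R 4.3.3): TMM, filterByExpr, quasi-likelihood F test, two-sided, 15 libraries in 5 group means, Benjamini-Hochberg adjustment over 16841 genes, passing at an adjusted p under 0.05. SE is the absolute log2 fold change over the square root of F. DESeq2 1.42.0 and other settings were alternatives. The fits were checked on simulated counts.

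Same-numbered libraries deviated together in every pair (lowest r 0.103) for U251 1812 or 1813 against control, 1812 against 1813, and control against control. Between the lines with 1812, r was 0.063, 0.0098 and 0.18 for replicates 1, 2 and 3. For U87 1812 against control, and for the difference between the lines in the change with 1812, r went down to -0.20. The members and gene lists were chosen with earlier results of these data known. Of the lists, at most 3 genes that passed, with the smallest adjusted p, are named in each comparison; the 5 most alike genes had a mean of at least 5 FPKM, on log2(CPM + 1). The values of 1 listed regulator are not reported here.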

Additional observations from a re-analysis of the deposited data

Results flagged for a closer look

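The change with hairpin 1812 differed between U87 and U251, by the edgeR test of the difference itself, in 5 genes of the lists. The log2 difference, U87 minus U251, was -1.36 for HLA-F (adjusted p 0.0244), -1.03 for MR1 (adjusted p 0.0210) and 0.92 for ERAP2 (adjusted p 0.0493). Of the glial markers it was 1.30 for SLC1A3 (adjusted p 0.00287) and 2.20 for GFAP (adjusted p 0.0152). Each was significant with all 15 libraries. ERAP2 missed the threshold in 12 of its alternatives, MR1 in 8 and HLA-F in 7.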

How the results depend on the processing

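Counts over all genes also moved with the fit. For 1812 against control in U251, 338 of 15156 genes were higher and 496 lower with the compared groups alone, and 278 and 479 of 15961 with DESeq2. For the hairpins against each other, 350 of 14842 were higher and 275 lower with the compared groups alone, against 8 and 5 of 16841 in the main fit. No such count is given for the other fits named here. Counts of the 9 genes that passed moved as follows. In U251, 1812 against control gave 0, but 7 without a filter on low counts, 7 with the compared groups alone, 1 with DESeq2 and 1 with control replicate 1 alone. The hairpins against each other gave 0, but 4 with the compared groups alone, 3 with control replicate 1 alone and 1 without a filter. In U87, 1812 gave 0, and 1 with control replicate 1 alone. The difference between the lines in the change with 1812 gave 0, but 4 with control replicate 1 alone and 2 without a filter. Counts with control replicate 1 alone borrow the spread of that single library from the hairpin groups. Leaving out 1 library gave 0 to 4 in U87, 6 to 9 between the controls, 7 to 9 between the lines with 1812, and 0 in the others. The replicate block gave 7 in place of 6 between the controls, through B2M, and changed no other call. Relative log expression size factors changed no count. Signs turned in values that had not passed. In U87, with control replicate 1 alone, HLA-C was -0.22, HLA-E -0.33, B2M -0.32, TAP2 -0.026, PSMB8 -0.28 and PSMB9 -0.38. With the make-up term, HLA-C was -0.046, HLA-E -0.015, B2M -0.040 and PSMB8 -0.065. TAPBP was 0.020 without a filter. Leaving out 1 library gave ranges of -0.43 to 0.23 for TAP1, -0.22 to 0.14 for TAPBP and -0.0075 to 0.33 for HLA-C. In U251 with 1813, TAP1 was 0.049 and TAP2 0.083 with control replicate 1 alone, HLA-E -0.31, B2M -0.23, PSMB8 -0.17 and PSMB9 -0.25 with the term, and HLA-E ran from -0.00054 to 0.14 without 1 library. Without 1 library, TAP2 ran from -0.11 to 0.17 with 1812 and TAPBP from -0.12 to 0.022 between the hairpins. PSMB9 was -0.17 between the control replicates 1. In the difference between the lines TAP2 was -0.54 with control replicate 1 alone. There, without 1 library, TAP2 ran from -0.049 to 0.33, B2M from -0.61 to 0.19, PSMB8 from -0.52 to 0.18 and PSMB9 from -0.78 to 0.20. The cause was not tested. Of the other values of the 9 genes, 791 kept direction and side of the threshold, 45 came to pass and 6 ceased to. With 3 libraries a group the least reads (PSMB9, 211) set the coarsest level.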

Other observations

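Both astrocyte markers named above fell in U251 with 1812. GFAP, an intermediate filament protein of astrocytes, stood at 12.8, 9.53 and 8.62 scaled FPKM in U251 control, 2.32, 1.33 and 1.04 with 1812 and 3.84, 5.61 and 5.24 with 1813 (1812 against control -2.72, SE 0.27, edgeR adjusted p 2.7e-04). SLC1A3, a glutamate transporter, fell by 0.71 (SE 0.13, adjusted p 0.0265) and missed the threshold with control replicate 1 alone (-0.62, adjusted p 0.0777) and when any 1 of 5 libraries was left out (0.0770 to 0.174). Of the 11 glial markers these 2 passed in that comparison and none passed as higher. SLC1A3 rose in U87 with 1812, by 0.59 (SE 0.13, edgeR adjusted p 0.0117), and passed in 11 of 13 alternatives. GFAP did not pass in U87 (-0.52, adjusted p 0.337).

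CD74, the invariant chain of class II, stood at 19.6, 19.3 and 17.9 scaled FPKM for the U87 controls and 37.0, 47.7 and 42.4 with 1812 there. The groups did not overlap, and the difference of 1.16 did not pass (SE 0.58, edgeR adjusted p 0.199). HLA-DMA, which helps load class II, rose by 0.73 in the same comparison (adjusted p 0.0419), the 1 of 8 class II genes that passed, and it missed the threshold when any 1 of 5 libraries was left out (adjusted p 0.0539 to 0.117).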
